A study of Mus musculus with 9 samples.

Results

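T cell receptor genes were followed in 9 C57BL/6J mice (inbred) through their lung RNA, with 3 mice in each of 3 groups. Members were the genes of the receptor's variable (V), diversity (D), joining (J) and constant (C) segments. They were chosen by symbol and by their measured level, above 0 TPM in at least 1 library of any group, which left 140 of the 260 receptor genes in a table of 57010 genes. TPM is a measure of transcript abundance per length in which each library sums to the same total, so the sequencing depth is unknown. The CuO_TTM group received copper oxide nanoparticles as 100 µl of a suspension at 2 mg/mL, instilled into the trachea on a single occasion, and drank water with 0.02 mg/mL of TTM. The CuO group received the same particles without TTM, and the control group 100 µl of sterile saline. Lungs were taken on day 7. The labels do not spell out TTM, and they give no sex, age or dosing schedule for it.

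A T cell receptor is a pair of chains, alpha with beta or gamma with delta. In developing T cells recombination joins a V segment, a D segment in beta and delta, and a J segment, and RNA splicing adds the C gene, so that a T cell clone keeps the V segment it joined, while its C gene is shared with other cells of its lineage. Alpha-beta T cells are most T cells of blood and lymph nodes, and include the CD4 and CD8 lineages. Gamma-delta T cells are found in lung and other barrier tissues. In mice, lung cells with the V segments Trgv6 and Trdv4 are known for making interleukin-17, and those with Trgv4 or Trgv1 make up other subsets. Gamma genes can also be transcribed in alpha-beta T cells, so that the level of a gamma gene is not a count of gamma-delta cells.

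The sequences of 9 V segments show how far they can be told apart by short reads. The last 60 bases of each GENCODE M21 transcript (build GRCm38) are printed 5′ to 3′ on the coding strand, with the codon of the conserved cysteine near the end of the V region in capitals. The first 5 are gamma and delta segments, chosen because Trgv2 is compared below with its relatives and with segments of lung gamma-delta cells. The others are leading alpha and beta segments.
Trgv2: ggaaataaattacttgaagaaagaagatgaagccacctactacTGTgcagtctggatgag
Trgv1: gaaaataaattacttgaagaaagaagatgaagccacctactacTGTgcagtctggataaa
Trgv4: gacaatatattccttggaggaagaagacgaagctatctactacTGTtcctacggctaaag
Trgv6: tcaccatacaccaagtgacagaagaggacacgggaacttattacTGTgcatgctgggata
Trdv4: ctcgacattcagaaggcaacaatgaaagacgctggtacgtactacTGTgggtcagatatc
Trav16n: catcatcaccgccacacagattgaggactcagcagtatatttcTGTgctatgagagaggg
Trav16: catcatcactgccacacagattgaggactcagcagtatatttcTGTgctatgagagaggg
Trbv26: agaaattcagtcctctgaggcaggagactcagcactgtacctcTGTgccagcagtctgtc
Trbv29: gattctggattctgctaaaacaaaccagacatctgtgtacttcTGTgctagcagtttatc

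Within these 60 bases Trgv1 and Trgv2 differed at 3 positions, Trgv4 and Trgv2 at 18, and Trgv6 and Trgv2 at 45. Trav16 and Trav16n differed at 1 position, T10C, where positions count from the first base printed and the base of Trav16 is named first. Reads over that window could thus be shared between the copies, and the values of Trav16 and Trav16n are uncertain one against the other. The same holds for Trgv1 and Trgv2. In the mouse, the alpha locus carries duplicated blocks of V segments, and 15 sets of members, 30 genes in all, had equal values in all 9 libraries. In 14 of these sets the genes share an identical GENCODE transcript. The exception was Trav7-1 with Trdv1, which were above 0 in 1 library.

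The members comprised 98 of 128 alpha V, 23 of 35 beta V, 7 of 7 gamma V and 4 of 6 delta V segments, and all 8 constant genes. Of the alpha V members 10 carry a name that marks them as shared with the delta chain. Alpha and beta genes together were 124 of the members, and gamma and delta genes 16. All 76 J and D genes were listed at 0 in every library. Their transcripts are at most 72 bases long, against 328 to 595 bases for the V segments, and the lengths' part in these zeros was not tested. The lowest members, Trav12d-1 and Trav12n-1, reached 0.35 TPM in their highest library, and the genes outside the set stood at 0. Of the 140 members 24 were above 0 in all 9 libraries and 11 in 1 library. A filter of at least 1 TPM in at least 3 libraries was passed by 68 members, which were tested together with all other genes passing it, 15487 in all. The other 72 members were not tested.

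Libraries of 1 group differed in these genes. In CuO_TTM replicates 1, 2 and 3, 120, 90 and 86 receptor genes were above 0. In CuO replicates 1, 2 and 3 the numbers were 33, 92 and 62, and in control replicates 86, 88 and 77. CuO replicate 1 stood apart: its alpha and beta V segments summed to 0.172 of its alpha and beta constant genes, against ratios of 1.195 to 2.29 in the other 8 libraries. Scgb1a1, a product of airway club cells, held 0.180% and 0.353% of TPM in CuO_TTM replicates 2 and 3, 8.17% in CuO_TTM replicate 1, 6.90% to 12.3% in CuO and 17.3% to 22.5% in control lungs. Sftpc, the surfactant protein that marks alveolar type II cells, was at 17957 TPM or more in each library, as fits the labelled tissue. In whole lung, a greater number of cells of a type and more RNA per cell cannot be told apart.

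What TTM added to the particles was addressed by CuO_TTM against CuO. Alpha and beta constant genes and many alpha and beta V segments were higher in CuO_TTM lungs, and no receptor gene was called lower. Trac, the single alpha constant gene, had 188, 177 and 83.4 TPM in CuO_TTM lungs, against 16.1, 33.4 and 12.7 TPM in CuO lungs. The groups did not overlap, and the lowest CuO_TTM lung was above the highest CuO lung. Trac (ENSMUSG00000076928) averaged 149 ± 57.4 TPM in CuO_TTM lungs and 20.7 ± 11.1 TPM in CuO lungs (SD, n = 3 each), a difference of 2.82 in log2(TPM + 1) with a 95% confidence interval of 1.85 to 3.79 (limma, Benjamini-Hochberg adjusted p = 0.0243). Trbc1, one of the pair of beta constant genes, had 103, 103 and 46.3 TPM in CuO_TTM lungs, against 16.2, 18.4 and 8.72 TPM in CuO lungs, which did not overlap. The log2 difference of Trbc1 was 2.44 ± 0.40 (SE; limma adjusted p = 0.0296). Trbc2 had 238, 133 and 78.8 TPM in CuO_TTM lungs, against 46.7, 42.8 and 14.5 TPM in CuO lungs. Its groups did not overlap either, but its log2 difference of 2.10, with an interval of 0.99 to 3.22, missed the threshold (adjusted p = 0.130). Trbc1 and Trbc2 are 95.6% identical over 521 aligned bases, with a shared run of 259 bases, so the division of reads between them is uncertain.

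**Figure D1:**
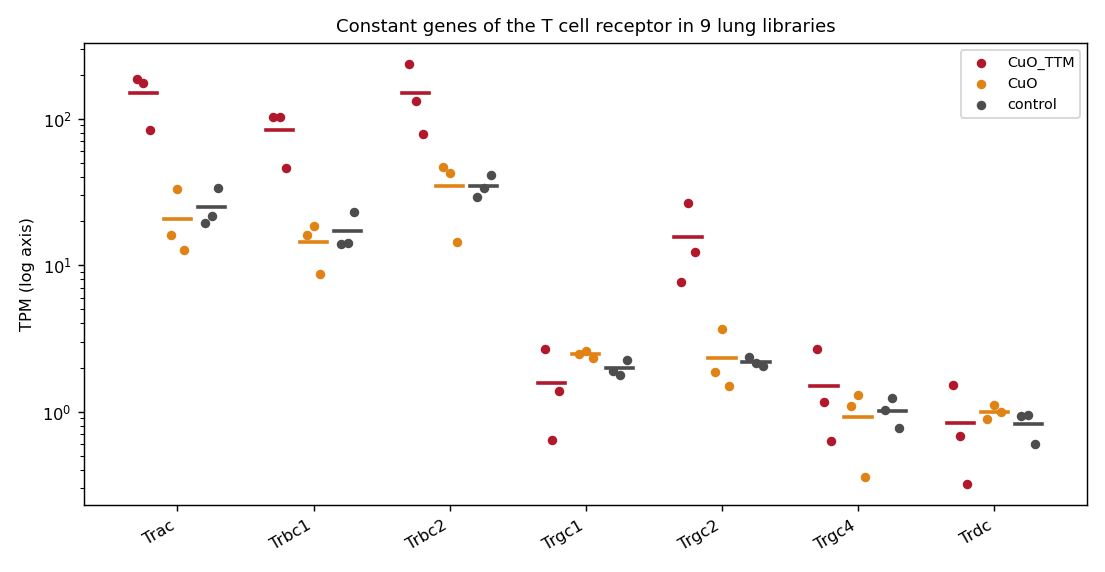
TPM of 7 receptor constant genes on a log axis in each of the 9 libraries, with CuO_TTM, CuO and control from left to right within each gene and a bar at the group mean. Trac, Trbc1, Trbc2 and Trgc2 lay higher in all 3 CuO_TTM lungs than in the 6 others, while Trgc1, Trgc4 and Trdc overlapped. Trgc3, listed at 0 in 4 libraries, is not drawn.

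In all, 11 of the 68 tested members were called higher and 0 lower in CuO_TTM than in CuO lungs, where 0.691% of all tested genes were called higher and 0.0194% lower. At an unadjusted p below 0.05 there were 41 members, beside 7.75% of all tested genes. Ranges that did not overlap, with CuO_TTM above, were found for 34 of the 68 members, against 9.78% of all tested genes. The median log2 difference of the tested members was 1.76, and that of all tested genes 0.19. Members could pass the filter through CuO_TTM lungs in part. Among the 38 members with at least 1 TPM in at least 3 of the CuO and control libraries, 6 were called higher and the median was 2.02, while 0.587% of all genes filtered in the same way were called higher. With untested members included, group means over the 124 alpha and beta members were higher in CuO_TTM for 111 and lower for 10. Over the 16 gamma and delta members they were higher for 7 and lower for 9. Members were chosen as above 0 TPM in any library, so the 13 above 0 only in CuO_TTM lungs are higher there by selection. Only 1 was above 0 in CuO lungs alone and 3 in control lungs alone. Copies with equal values count separately. Of all 15487 tested genes, 11249 had a log2 difference above 0.

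The number of called members depended on single libraries. It was 6, 0 and 4 without CuO_TTM replicates 1, 2 and 3, 3, 18 and 4 without CuO replicates 1, 2 and 3, and 5, 6 and 7 without control replicates 1, 2 and 3, since all groups share an estimate of the spread. It was 0 with CuO_TTM replicates 2 and 3 left out together, where the lone lung is assumed to vary like the other groups, and 0 with the groups compared fitted alone. At an unadjusted p below 0.05 limma counted 42 members without CuO_TTM replicate 2, 38 without replicates 2 and 3, and 38 with the groups alone. For Trac, the adjusted p was 0.0552 and 0.135 without CuO_TTM replicates 1 and 2, 0.0652 and 0.0747 without CuO replicates 1 and 3, and 0.0526 and 0.0577 without control replicates 1 and 2, while its log2 difference over 20 alternatives ran between 2.54 and 3.24 and its adjusted p between 0.0151 and 0.211. Trac also missed the threshold without a filter (adjusted p = 0.0906), with the groups alone (0.114) and with median-ratio scaling (0.0550), and Trbc1 passed it in 6 of 20 alternatives.

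Among the alpha V segments 5 of 38 tested were called higher in CuO_TTM than in CuO lungs. Trav16n, a segment of a duplicated alpha block, had 16.5, 112 and 43.8 TPM in CuO_TTM lungs, against 0, 1.66 and 0.94 TPM in CuO lungs (log2 difference 4.69 ± 0.74 SE; limma adjusted p = 0.0258). CuO_TTM replicate 2 was highest, and no CuO lung reached the lowest CuO_TTM lung. Trav16, its near copy, had 15.8, 14.2 and 26.8 TPM in CuO_TTM lungs, against 0, 1.57 and 0 TPM in CuO lungs (log2 difference 3.81; adjusted p = 0.0168). Here CuO_TTM replicate 3 was highest. Trav7d-3 had 8.90, 8.27 and 4.99 TPM in CuO_TTM lungs, against 0, 1.79 and 0 TPM in CuO lungs (adjusted p = 0.0298). Trav4-2, with 2.83, 2.53 and 2.45 TPM, and Trav14-1, with 2.23, 2.99 and 1.92 TPM in CuO_TTM lungs, were listed at 0 in all CuO and control lungs, so no fold is given (adjusted p = 0.0156 each). Among tested members, these were the 2 that passed the filter through CuO_TTM lungs alone, with no other library at 1 TPM. Trav16n, Trav7d-3 and the beta segment Trbv20, given below, reached 1 TPM in fewer than 3 of the CuO and control libraries. They too needed CuO_TTM lungs to pass. The calls of these segments and of Trav4-2 and Trav14-1, included in the counts, are therefore not read as support for a difference.

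The other 3 alpha segments of highest mean were not called. Trav6n-6 had 43.1, 15.3 and 19.7 TPM in CuO_TTM lungs, against 0, 8.19 and 1.37 TPM in CuO lungs and 5.65, 3.03 and 1.83 TPM in control lungs (limma adjusted p = 0.130 against CuO and 0.121 against control). Every CuO_TTM lung lay above every other lung. Trav8n-2 had 5.44, 10.2 and 25.7 TPM in CuO_TTM lungs, against 0, 3.99 and 0 TPM in CuO lungs, and Trav7-4 had 6.97, 25.4 and 4.95 TPM in CuO_TTM lungs, against 0, 3.00 and 1.85 TPM in CuO lungs. Each of these was highest in a different CuO_TTM lung.

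Among the beta V segments 4 of 21 tested were called higher in CuO_TTM than in CuO lungs, and the log2 difference was above 0 for all 21. It was above 0 for 11249 of all 15487 tested genes. Trbv12-2 had 20.9, 18.9 and 19.3 TPM in CuO_TTM lungs, against 0.34, 2.05 and 1.15 TPM in CuO lungs (log2 difference 3.33; limma adjusted p = 0.0218). The 3 CuO_TTM lungs were close together. Trbv16 had 23.9, 39.6 and 19.96 TPM in CuO_TTM lungs, against 0.31, 4.92 and 2.08 TPM in CuO lungs (log2 difference 3.26; adjusted p = 0.0296). In both segments CuO replicate 1 was the lowest lung. Trbv20, with a difference of 2.74, and Trbv5, with one of 2.74, were the other called beta segments (adjusted p = 0.0223 and 0.0477). Trbv26, the beta segment of highest mean, had 30.3, 65.3 and 31.1 TPM in CuO_TTM lungs, against 0.48, 6.43 and 3.36 TPM in CuO lungs, and missed the threshold (log2 difference 3.48; adjusted p = 0.0531). Trbv29 had 63.2, 26.8 and 4.82 TPM in CuO_TTM lungs, against 0, 18.5 and 5.37 TPM in CuO lungs. These ranges overlapped, with CuO_TTM replicate 3 below CuO replicate 2 (adjusted p = 0.733).

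**Figure D2:**
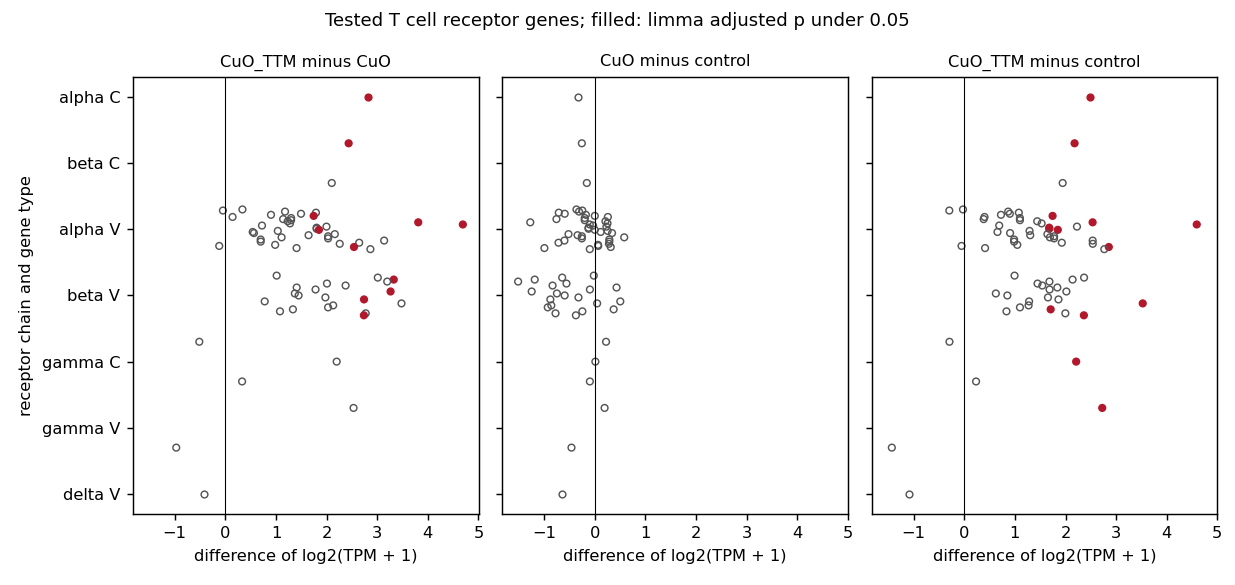
Differences in log2(TPM + 1) for the 68 tested receptor genes, one point a gene, in rows by chain and gene type, for the 3 comparisons. Filled points passed the limma threshold: 11 in CuO_TTM minus CuO, none in CuO minus control and 14 in CuO_TTM minus control, and alpha and beta genes lie mostly right of 0 in the panels with CuO_TTM.

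Summed by chain, alpha V segments reached 375, 321 and 228 TPM in CuO_TTM lungs, against 5.02, 92.4 and 28.5 TPM in CuO lungs and 49.2, 60.8 and 43.4 TPM in control lungs. Beta V segments summed to 477, 306 and 235 TPM in CuO_TTM lungs, against 8.59, 124 and 38.9 TPM in CuO lungs and 66.5, 83.1 and 74.5 TPM in control lungs. For both chains every CuO_TTM lung lay above every other lung, and CuO replicate 1 was the lowest of the 9.

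**Figure D3:**
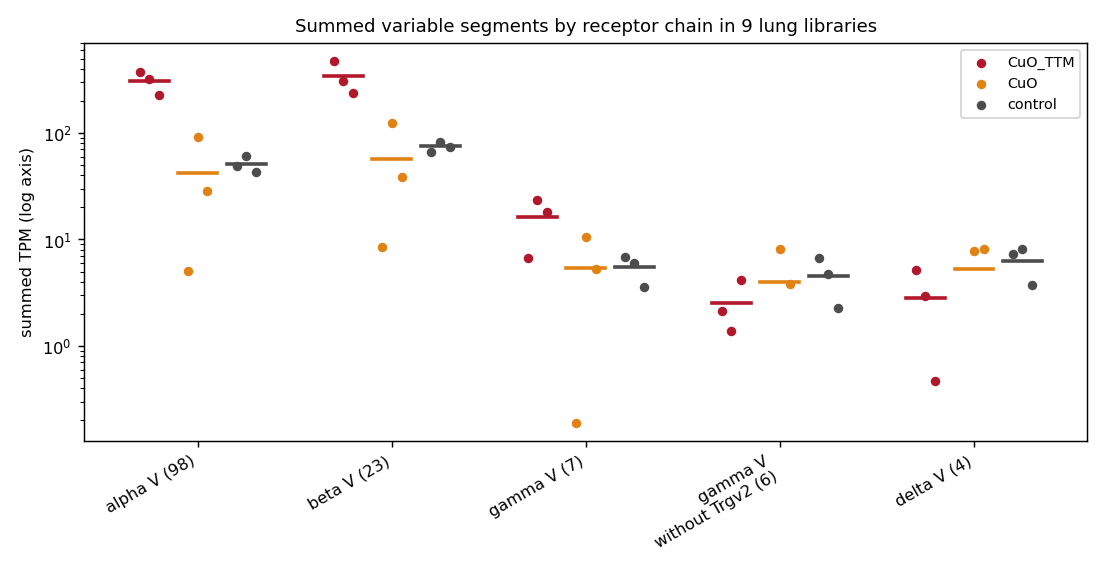
Summed TPM of V segments by chain on a log axis in each library, with CuO_TTM, CuO and control from left to right, the number of segments in brackets and a bar at the group mean. Alpha and beta sums were highest in the 3 CuO_TTM lungs, and delta sums reached at most 5.12 TPM in CuO_TTM lungs, against 8.07 in CuO and 8.08 in control lungs. CuO replicate 1 is at 0 for delta V and for gamma V without Trgv2 and cannot be drawn on this axis.

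The gamma and delta genes did not move as a group. Of the 6 tested, none was called in CuO_TTM against CuO lungs, where 2 had an unadjusted p below 0.05, and the median log2 difference was -0.05, beside 1.79 for the 62 tested alpha and beta genes. Trgc2, the gamma constant gene that lies with Trgv2 in one cluster of the locus, had 7.66, 26.8 and 12.4 TPM in CuO_TTM lungs, against 1.87, 3.64 and 1.49 TPM in CuO lungs. The groups did not overlap, but the log2 difference of 2.20, with an interval of 1.26 to 3.13, missed the threshold (limma adjusted p = 0.0564). It passed without CuO_TTM replicate 1 (adjusted p = 0.0291) and without CuO replicate 2 (adjusted p = 0.0497), and its adjusted p over 20 alternatives ran up to 0.561. Trgv2 had 4.65, 22.0 and 14.2 TPM in CuO_TTM lungs, against 0.19, 2.42 and 1.5 TPM in CuO lungs, again without overlap (log2 difference 2.53; adjusted p = 0.106).

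Trgc1, the constant gene of the cluster that holds Trgv4 to Trgv7, had 2.68, 0.64 and 1.38 TPM in CuO_TTM lungs, against 2.47, 2.61 and 2.34 TPM in CuO lungs (log2 difference -0.51, interval -1.18 to 0.15; limma adjusted p = 0.822). The CuO_TTM lungs spanned the CuO values, and only CuO_TTM replicate 1 was above them. Trgc4, the constant gene of the Trgv1 cluster, had 2.68, 1.17 and 0.63 TPM in CuO_TTM lungs, against 1.1, 1.29 and 0.36 TPM in CuO lungs (log2 difference 0.33, interval -0.42 to 1.09). Trdc, the single delta constant gene, had 1.51, 0.68 and 0.32 TPM in CuO_TTM lungs, against 0.89, 1.11 and 0.99 TPM in CuO lungs and 0.94, 0.95 and 0.60 TPM in control lungs. It did not pass the filter and overlapped between all groups. Trgc3 was highest at 0.76 TPM in CuO_TTM replicate 2 and was not tested. Trgc1 and Trgc2 are 94.4% identical over 926 aligned bases, and Trgc1 and Trgc3 96.9% over 649, so reads can be shared among them.

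Trgv6 had 1.07, 0 and 0 TPM in CuO_TTM lungs, against 0, 4.44 and 1.86 TPM in CuO lungs and 6.25, 1.65 and 1.11 TPM in control lungs. Trdv4, which pairs with it in mouse lung cells, had 3.64, 2.94 and 0.47 TPM in CuO_TTM lungs, against 0, 6.25 and 8.07 TPM in CuO lungs and 5.2, 7.73 and 3.72 TPM in control lungs. Every control lung lay above every CuO_TTM lung for both genes, while CuO lungs overlapped both groups. Neither difference passed the test: for CuO_TTM against control it was -1.43 for Trgv6, with an interval of -2.90 to 0.04, and -1.08 for Trdv4, with an interval of -2.84 to 0.67 (limma adjusted p = 0.290 and 0.514). Trgv4 stayed at or below 0.53 TPM in CuO_TTM, 0.50 TPM in CuO and 1.88 TPM in control lungs. Trgv5, a segment of skin gamma-delta cells in mice, was listed above 0 in CuO_TTM replicate 3 alone, at 2.06 TPM. Trgv1 was above 0 in CuO_TTM replicate 3 and CuO replicate 2, at 1.57 and 0.75 TPM. The other gamma and delta V segments were at or near 0 in most lungs. Trgv3 and Trgv7 reached at most 1.54 and 1.59 TPM, each in a CuO lung. Trdv5 and Trdv2-2 reached at most 1.08 and 0.96 TPM, each in control replicate 1, and Trdv1 was above 0 in CuO_TTM replicate 1 alone, at 0.79 TPM.

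**Figure D4:**
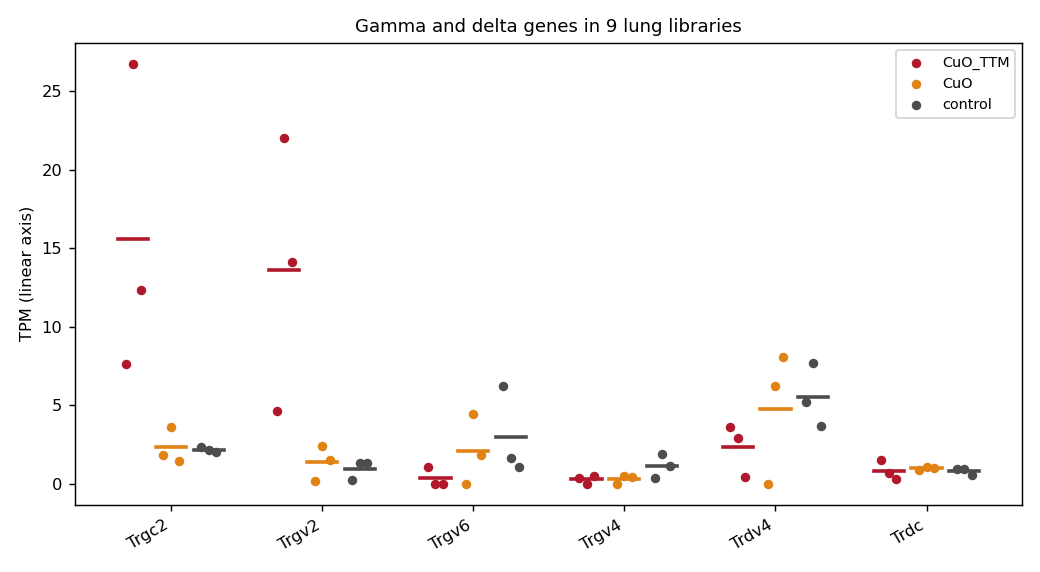
TPM of 6 gamma and delta genes on a linear axis in each library, with CuO_TTM, CuO and control from left to right and a bar at the group mean. Trgc2 and Trgv2 were highest in CuO_TTM lungs, at up to 26.8 and 22.0 TPM, while Trgv6 and Trdv4 were lower in every CuO_TTM lung than in every control lung.

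Trgv2 made up 68.8%, 94.1% and 77.3% of summed gamma V TPM in CuO_TTM lungs. In CuO lungs it made up 100%, 22.7% and 28.1%, the first being 0.19 TPM in CuO replicate 1, and in control lungs 3.91%, 21.8% and 37.0%. Without Trgv2 the gamma V segments summed to 2.11, 1.38 and 4.16 TPM in CuO_TTM lungs, against 0, 8.23 and 3.83 TPM in CuO lungs and 6.64, 4.71 and 2.25 TPM in control lungs, which overlapped. The higher gamma V sum of CuO_TTM replicates 2 and 3 was thus Trgv2 for the most part. Trgc2 stood at 0.0407, 0.152 and 0.148 of Trac in CuO_TTM lungs, 0.116, 0.109 and 0.118 in CuO lungs and 0.122, 0.0986 and 0.0606 in control lungs. These ratios overlapped between the groups.

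The balance of alpha-beta over gamma-delta was compared through the ratio of Trac to Trdc. It was 125, 260 and 261 in CuO_TTM lungs, against 18.1, 30.1 and 12.8 in CuO lungs and 20.7, 23.0 and 56.4 in control lungs. Every CuO_TTM lung had a higher ratio than every other lung. The log2 ratio, with 1 TPM added to each gene, was 2.99 higher in CuO_TTM than in CuO lungs and 2.52 higher than in control lungs, and -0.47 in CuO minus control. Trac alone was 2.82 and 2.48 higher on this scale in CuO_TTM than in CuO and control lungs. Trdc lay between 0.32 and 1.51 TPM in all lungs and did not pass the filter, so the ratio mostly restates Trac. The ratios of 260 and 261 rest on 0.68 and 0.32 TPM of Trdc. The longest GENCODE transcript has 935 bases for Trac and 3865 for Trdc. As TPM is per length, the size of the ratio depends on the lengths used and is not a ratio of cells. Over the 3 groups the exact permutation test of the log2 ratio gave p = 0.0143, where the smallest p it can give is 0.00357. Between CuO_TTM and CuO and between CuO_TTM and control the exact two-sided p was 0.1, the smallest that 3 against 3 lungs allow. The ratio depended on which gamma-delta gene it was set against: with all alpha-beta constant genes summed over all gamma-delta constant genes, Trgc2 included, the log2 difference between CuO_TTM and CuO was 1.08 and the exact permutation p over the 3 groups 0.118. With Trgc1 in place of Trdc, chosen after seeing the data, it was 3.33 with an exact permutation p = 0.0107. Gamma-delta genes held 1.89%, 5.14% and 4.79% of all receptor TPM in CuO_TTM lungs, against 6.58%, 8.01% and 15.4% in CuO lungs and 10.3%, 8.64% and 5.65% in control lungs, and every CuO_TTM lung lay below every other lung.

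The particles alone were addressed by CuO against control. No receptor gene was called either way by limma, and none of the 15487 tested genes was (0%). At an unadjusted p below 0.05 there were 3 of 68 members, beside 7.95% of all tested genes: Trav16, Trbv12-2 and Trbv16, each lower in CuO. Trav16 had 0, 1.57 and 0 TPM in CuO lungs, against 2.83, 0.78 and 4.34 TPM in control lungs. Trbv12-2 had 0.34, 2.05 and 1.15 TPM in CuO lungs, against 1.05, 6.61 and 5.64 TPM in control lungs, and Trbv16 showed the same order with overlap. Their log2 differences were -1.27, -1.19 and -1.25 (limma adjusted p = 0.561, 0.592 and 0.606). Trac averaged 20.7 ± 11.1 TPM in CuO lungs and 25.0 ± 7.70 TPM in control lungs (SD, n = 3 each), a log2 difference of -0.34 with an interval of -1.30 to 0.63.

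The median log2 difference of the tested members in CuO minus control was -0.20, and that of all tested genes 0.03. Trgc1 was the single member whose groups did not overlap, with 2.47, 2.61 and 2.34 TPM in CuO lungs, against 1.90, 1.78 and 2.27 TPM in control lungs, where 9.37% of all genes did not overlap with CuO higher and 3.53% with CuO lower. Its log2 difference was 0.22, with an interval of -0.45 to 0.89 (limma adjusted p = 0.990). With CuO replicate 1 left out, 0 members had an unadjusted p below 0.05, and with CuO replicate 2 left out 7 did. None was called in either case.

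The comparison of CuO_TTM with control asks how lungs with particles and TTM differed from lungs given saline. It shares its CuO_TTM lungs with the first comparison. Of the 68 tested members 14 were called higher and 0 lower, where 1.79% of all tested genes were called higher and 0.11% lower. At an unadjusted p below 0.05 there were 36 members, beside 18% of all tested genes. Ranges did not overlap for 36 members with CuO_TTM higher, against 31% of all tested genes, and for 2 with CuO_TTM lower, Trgv6 and Trdv4, against 5.73%. The median log2 difference of the tested members was 1.53, and that of all tested genes 0.24. Among the 38 members that passed the filter without CuO_TTM lungs, 7 were called higher, while 1.56% of all genes filtered in the same way were.

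The called genes of CuO_TTM against control were 12 alpha and beta genes and 2 gamma genes. Trac averaged 149 ± 57.4 TPM in CuO_TTM lungs and 25.0 ± 7.70 TPM in control lungs (log2 difference 2.48, interval 1.52 to 3.45; limma adjusted p = 0.0280). Trbc1 differed by 2.18 (adjusted p = 0.0340), and Trbc2, with 1.94, missed the threshold (adjusted p = 0.0893). All 3 genes were higher in every CuO_TTM lung than in every control lung. Trgc2 had 7.66, 26.8 and 12.4 TPM in CuO_TTM lungs, against 2.37, 2.15 and 2.05 TPM in control lungs (log2 difference 2.21, interval 1.28 to 3.14; adjusted p = 0.0359). Trgv2 had 4.65, 22.0 and 14.2 TPM in CuO_TTM lungs, against 0.27, 1.31 and 1.32 TPM in control lungs (log2 difference 2.73, interval 1.47 to 3.98; adjusted p = 0.0456). In both gamma genes the 3 CuO_TTM lungs lay above the 3 control lungs, and CuO_TTM replicate 2 was highest.

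The V segments called in CuO_TTM against control were Trav3d-3, Trav3n-3, Trav4-2, Trav7d-3, Trav14-1, Trav16, Trav16n, Trbv5, Trbv26, Trbv30 and Trgv2. Of these, Trav4-2 and Trav14-1 passed the filter through CuO_TTM lungs alone. Trav3d-3, Trav3n-3, Trav7d-3, Trav16n and Trbv30 reached 1 TPM in fewer than 3 of the CuO and control libraries, so they needed CuO_TTM lungs as well. The calls of all these segments are not read as support. Trav16n had 16.5, 112 and 43.8 TPM in CuO_TTM lungs, against 0.43, 0 and 3.43 TPM in control lungs (log2 difference 4.59; limma adjusted p = 0.0240). Trbv26 had 30.3, 65.3 and 31.1 TPM in CuO_TTM lungs, against 0.62, 4.17 and 4.2 TPM in control lungs (log2 difference 3.53; adjusted p = 0.0347). No control lung reached the lowest CuO_TTM lung in either. Trbv30 had 1.67, 1.81 and 3.64 TPM in CuO_TTM lungs and was listed at 0 in control lungs (adjusted p = 0.0446). Trav3d-3 and Trav3n-3, which share a transcript and count as 1 measurement, had 6.73, 2.66 and 3.92 TPM each in CuO_TTM lungs, against 0.77, 0.37 and 0.75 TPM in control lungs (adjusted p = 0.0474).

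The number of members called in CuO_TTM against control was 5, 0 and 0 without CuO_TTM replicates 1, 2 and 3, 25, 16 and 7 without CuO replicates 1, 2 and 3, and 0, 0 and 3 without control replicates 1, 2 and 3. At an unadjusted p below 0.05 limma counted 30 to 42 members in the fits with no call. With Scgb1a1 left out of the total it was 4, and Trac (adjusted p = 0.0533), Trgc2 (0.0603) and Trgv2 (0.0693) then missed the threshold. Over 20 alternatives each, the adjusted p ran between 0.0136 and 0.309 for Trac, which was called in 9, between 0.0193 and 0.461 for Trgc2, called in 12, and between 0.0173 and 0.596 for Trgv2, called in 9.

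The choice of V segments within a chain varied from lung to lung. The leading alpha V segment was Trav6n-6 in CuO_TTM replicate 1, at 11.5% of summed alpha V TPM, and Trav16n in CuO_TTM replicates 2 and 3, at 35.0% and 19.2%. In CuO lungs the leading share was 16.3%, 8.87% and 10.6%, the first being Trav13d-2 at 0.82 TPM, and in control lungs it ran between 7.63% and 11.5%. The effective number of alpha V segments, the count of equally used segments that would give the same Shannon entropy, was 49.6, 17.9 and 21.7 in CuO_TTM lungs, against 8.64, 39.1 and 25.4 in CuO lungs and 37.6, 38.8 and 33.1 in control lungs. CuO_TTM replicates 2 and 3 were thus lower than all control lungs and CuO_TTM replicate 1 higher, and CuO replicate 1, with few V segment transcripts, was lowest. Copies that share a transcript were counted here as separate segments, which raises the effective number and can lower the leading share. In CuO replicate 1, Trav13d-2 and its copy Trav13n-2 stood at 16.3% each.

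Beta V use was more even. The effective number of beta V segments was 17.1, 13.2 and 14.8 in CuO_TTM lungs, against 12.0, 16.3 and 13.3 in CuO lungs and 15.0, 16.3 and 15.9 in control lungs, and the groups overlapped. Trbv26 held 6.35%, 21.3% and 13.2% of summed beta V TPM in CuO_TTM lungs, against 5.59%, 5.18% and 8.64% in CuO lungs and 0.93%, 5.02% and 5.63% in control lungs. Trbv29 led in CuO_TTM replicate 1 at 13.3%, and Trbv13-2 in CuO replicate 3 and in control replicates 1 and 3, at 20.3%, 15.8% and 11.6%. The shares describe transcripts in 3 mice a group and were not tested.

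**Figure D5:**
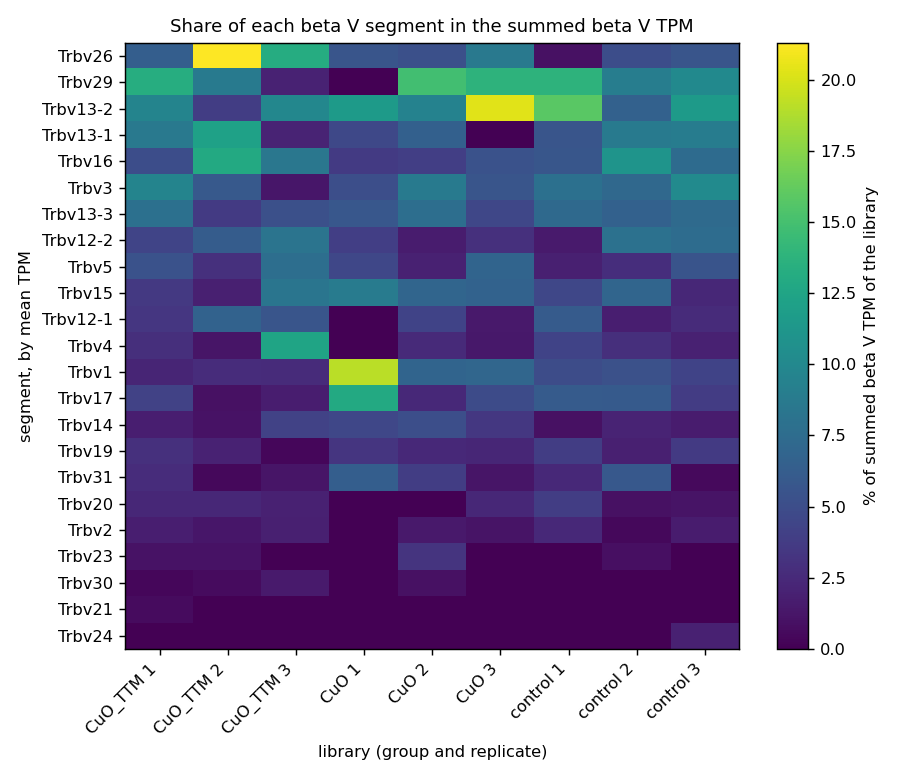
Share of each of the 23 beta V segments in the summed beta V TPM of each library, as a colour scale in %, with the libraries of CuO_TTM, CuO and control from left to right and segments in order of mean TPM. The brightest fields are Trbv26 in CuO_TTM replicate 2 at 21.3%, Trbv13-2 in CuO replicate 3 at 20.3% and Trbv1 in CuO replicate 1 at 19.1%, the last in a library with 8.59 TPM of beta V in all.

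Of the segments known for semi-invariant receptors, the alpha segments Trav11d and Trav1 were at low levels, while beta segments of the Trbv13 group were not. Trav11d, of the Trav11 family whose members join Traj18 in invariant natural killer T cells of mice, had 2.24, 0 and 0 TPM in CuO_TTM lungs, against 0, 0 and 2.58 TPM in CuO lungs and 2.38, 0.77 and 0 TPM in control lungs. Trav1, the alpha segment of mucosal-associated invariant T cells, had 3.93, 0 and 0 TPM in CuO_TTM lungs, against 0, 0.77 and 0 TPM in CuO lungs and 0.59, 0 and 0.58 TPM in control lungs. Both overlapped between the groups. Trbv19, one of the beta segments of mucosal-associated invariant T cells, had 14.1, 6.29 and 0.79 TPM in CuO_TTM lungs, against 0.28, 3.02 and 0.89 TPM in CuO lungs and 2.57, 1.54 and 2.70 TPM in control lungs, and was not called. The members of the Trbv13 group, used by natural killer T cells and by many conventional T cells, were not called either. Trbv13-1 had 41.1, 37.4 and 5.08 TPM in CuO_TTM lungs, against 0.40, 8.11 and 0 TPM in CuO lungs and 3.73, 7.21 and 6.66 TPM in control lungs. Trbv13-2 had 45.7, 11.96 and 23.3 TPM in CuO_TTM lungs, against 1.00, 11.7 and 7.90 TPM in CuO lungs and 10.5, 5.48 and 8.67 TPM in control lungs. Trbv13-3 had 37.3, 11.1 and 12.2 TPM in CuO_TTM lungs, against 0.50, 9.57 and 1.76 TPM in CuO lungs and 4.87, 5.48 and 5.52 TPM in control lungs. Trbv13-2 and Trbv13-3 were higher in every CuO_TTM lung than in every other lung, and Trbv13-1 in CuO_TTM replicates 1 and 2.

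Other genes of the receptor's pathway were read from lists. The CD3 and zeta chains, which carry the receptor's signal, were called higher in CuO_TTM than in CuO lungs in 4 of 4 cases (Cd3d, Cd3e, Cd3g and Cd247), and in 4 of 4 against control. Cd3e had 81.0, 74.9 and 51.4 TPM in CuO_TTM lungs, against 5.71, 13.9 and 6.94 TPM in CuO lungs and 10.8, 12.5 and 13.7 TPM in control lungs. Its log2 difference was 2.89 against CuO (limma adjusted p = 0.0156) and 2.37 against control (adjusted p = 0.0188). The ratio of Trac to Cd3e lay between 1.62 and 2.83 in all 9 lungs and overlapped between the groups. Trdc stood at 0.0186, 0.00908 and 0.00623 of Cd3e in CuO_TTM lungs, against 0.156, 0.0800 and 0.143 in CuO lungs and 0.0870, 0.0761 and 0.0439 in control lungs, so that every CuO_TTM lung was below every other lung.

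Of the co-receptors, Cd8a and Cd8b1, the chains of the CD8 molecule that binds class I complexes, differed by 3.65 and 3.92 between CuO_TTM and CuO lungs and were called in both comparisons with CuO_TTM. Cd4, which binds class II complexes, had 46.8, 15.1 and 12.9 TPM in CuO_TTM lungs, against 3.09, 9.90 and 6.67 TPM in CuO lungs, and was not called (log2 difference 1.66; limma adjusted p = 0.318). Of 12 genes of proximal signalling, 8 were called higher against CuO, namely Lck, Zap70, Lat, Skap1, Themis, Cd5, Cd6 and Cd2, with log2 differences of 1.99 to 2.69. Against control 7 were called higher, namely Zap70, Lat, Skap1, Themis, Ubash3a, Cd5 and Cd6, with log2 differences of 1.66 to 2.31. Of all tested genes, 0.691% were called higher in CuO_TTM against CuO and 1.79% against control. Rag1, Rag2 and Dntt, which act in receptor rearrangement, and Ptcra, a chain of the pre-receptor of thymocytes, summed to at most 1.13 TPM in any lung and were not tested.

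Of 9 genes linked to innate-like gamma-delta cells in mice, 5 were tested and 1, Cxcr6, was called higher in CuO_TTM against each other group. Cxcr6, a chemokine receptor that is also expressed by memory CD8 cells, had 50.1, 133 and 80.4 TPM in CuO_TTM lungs, against 2.02, 11.7 and 8.04 TPM in CuO lungs and 6.39, 5.92 and 5.98 TPM in control lungs. Sox13, a transcription factor of interleukin-17 producing gamma-delta cells, was not called in any comparison. Sox13 had 10.6, 17.6 and 23.9 TPM in CuO_TTM lungs, against 8.10, 9.63 and 26.3 TPM in CuO lungs and 29.8, 36.5 and 26.2 TPM in control lungs. Every CuO_TTM lung lay below every control lung, with a log2 difference of -0.85 (limma adjusted p = 0.346), while CuO_TTM and CuO lungs overlapped, with a difference of 0.34 (adjusted p = 0.890). The other tested genes of this list did not share that order. Zbtb16, Blk and Il1r1 overlapped between CuO_TTM and control lungs, with log2 differences of -0.15, 0.06 and 0.77, and were not called in any comparison. In control lungs Sox13 averaged 30.8 TPM, Zbtb16 17.0, Il1r1 12.5 and Blk 2.32, beside 12.3 TPM for Cd3e and 0.83 for Trdc. Which lung cells these transcripts came from was not tested. None of 8 natural killer and innate lymphoid genes and none of 5 B cell genes was called in any comparison. The natural killer and innate lymphoid genes summed to 14.2 to 55.2 TPM in CuO_TTM lungs, against 10.2 to 23.7 TPM in CuO lungs and 37.2 to 54.0 TPM in control lungs. The B cell genes summed to 41.2 to 201 TPM in CuO_TTM lungs, with CuO_TTM replicate 1 highest, against 21.7 to 27.6 TPM in CuO lungs and 31.4 to 87.2 TPM in control lungs. Their part in the receptor differences was not tested.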

How the data were processed

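Lung RNA of 9 mice was sequenced as poly(A)-selected, stranded libraries, per the labels' protocols, 1 library a mouse. The authors deposited TPM for 57010 genes, printed to 2 decimals. The submitters' processing notes name fastp, HISAT2, RSEM, DESeq2 and GRCm39 without versions. The sources used here do not say how reads matching several genes were divided.

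Symbols came from GENCODE M21 (GRCm38), matching 52029 of 57010 identifiers, so no coordinates are given. Of the members 130 matched by symbol and 10 through RefSeq synonyms, which carry older gamma names. Members and gene lists were chosen with earlier results of these data known, and some list genes are not reported here.

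In R 4.3.3, limma 3.58.1 was fitted to log2(TPM + 1) of all 9 libraries for the 15487 genes that reached 1 TPM in 3 or more libraries, with a trend on abundance. Differences on this scale understate changes of low genes. Benjamini-Hochberg adjustment over all tested genes was used, with a threshold of 0.05. The fit was tested on simulated data. An exact permutation test was used for the Trac to Trdc ratio. The labels give no pairing of the replicate numbers, and none was seen. Over 9 same-numbered pairs, correlations of deviations from the group means ran between -0.371 and 0.286. With 3 lungs a group, this check cannot exclude a pairing. Alternatives were other scalings, pseudocounts and filters, other model settings and leaving out libraries. Genes named are all constant genes, the 5 V segments of highest mean in each chain, called members, semi-invariant segments and called list genes. Other genes named (Cd4, Sox13, Zbtb16, Blk, Il1r1, Rag1, Rag2, Dntt, Ptcra, Trav7-1 and the lowest members among them) were chosen after their values were seen.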

Additional observations from a re-analysis of the deposited data

How the results depend on the processing

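No receptor gene was called lower, and in CuO against control none was called, under any alternative run. In CuO_TTM against CuO the 11 called members became 3 with a pseudocount of 0.1, 2 without a filter, 6 with a mean of at least 5 TPM and 0 with the groups compared alone, and 0 to 18 with a library left out. In CuO_TTM against control the 14 became 9 with quantile normalization, 5 with a pseudocount of 0.1, 2 without a filter, 5 with a mean of at least 5 TPM, 24 with the groups alone, 4 with Scgb1a1 left out and 0 to 25 with a library left out. Added after seeing the data, median-ratio scaling gave 8, and leaving out CuO_TTM replicates 2 and 3 together gave 0 in each of these comparisons. Apart from the replicate block, given below, the other settings stayed within 1.5 times. Quantile, median-ratio and Scgb1a1-free scaling lowered the median difference of all genes by 0.22 to 0.27 in CuO_TTM minus control and by 0.09 to 0.22 in CuO_TTM minus CuO, and the 14 and 11 called members kept their direction under each.

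No pairing of the lungs by replicate number was seen, and 1 of 9 libraries correlated best with its own number, though this cannot exclude a pairing. With the replicate block limma called 10 members in CuO_TTM against CuO, 8 of them shared, and 8 in CuO_TTM against control, and the exact permutation p of the Trac to Trdc ratio was 0.0833 at the same difference of 2.99. With summed constant genes the difference was 1.08. Leaving out a library gave differences of 2.72 to 3.34 and p of 0.00714 to 0.0286.

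Over 722 alternatives for 38 single-gene results, 471 kept direction and call, 236 lost the call, 4 gained it and 11 changed sign, all of uncalled genes. With CuO_TTM replicates 2 and 3 left out Trgc1 was at 0.084 against CuO and 0.31 against control. In CuO minus control with a library left out, Trbc1 ran between -0.45 and 0.046, Trbc2 between -0.45 and 0.36, Trgc4 between -0.24 and 0.13 and Trgc2 between -0.25 and 0.195. Trgc2 there was also at -0.0095 with a pseudocount of 0.1, -0.11 with Scgb1a1 left out and -0.0029 with median-ratio scaling. Trgc4 in CuO_TTM minus control ran between -0.089 and 0.498 with a library left out. The cause was not tested. The table keeps no depth, so counting error is unknown.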
